A study of Paralichthys olivaceus with 22 samples.

Results

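The late rise after Edwardsiella tarda FKC is a set of 67 of the 14052 contig-named probes on a Japanese flounder (Paralichthys olivaceus) array. These probes were higher than in PBS fish at 12 h and not, or only little, higher at 6 h. The set was chosen from the measured values. The mean E. tarda FKC level had to exceed the mean PBS level by at least 1.5 at 12 h and by less than 0.5 at 6 h on a log2 scale. The probe also had to be well above background, by the scanner software's own call, on all 4 E. tarda FKC arrays at 12 h. Of 480 contig-named probes that met both 12 h conditions, these 67 also met the 6 h limit. Each of the 67 probes stands for a separate contig entry, and the label of a late rise describes how the probes were chosen and not a known pathway.

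Total RNA from kidney was hybridised to 1-colour arrays, 1 sample per array, and 22 arrays were analysed. Fish had received an FKC preparation of E. tarda (4 arrays at 12 h, 3 arrays at 6 h), one of S. iniae (4 arrays at 12 h, 3 arrays at 6 h) or PBS as the control (4 arrays at each time). FKC is the abbreviation that the labels use for both bacterial preparations without spelling it out, and they give no dose, route or age of the fish. Whether the numbered samples of a group came from separate fish is not stated, so a p-value here reflects only how far these samples scatter, which may be a technical matter.

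In bony fish the kidney, in particular its anterior part, is a blood-forming and immune organ as well as an excretory one. It holds developing and mature leukocytes, among them phagocytes and antibody-forming cells, so RNA from it is a mixture of many cell types. E. tarda is a Gram-negative bacterium that causes edwardsiellosis in flounder, and Streptococcus iniae is a Gram-positive coccus that causes streptococcosis. Gram-negative cells carry lipopolysaccharide in an outer membrane, which Gram-positive cells lack. In whole kidney RNA a change in the number of cells of a type and a change in RNA per cell cannot be told apart.

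The probes carry contig names, and neither the files nor the gene table used here pairs these names with genes. None of the 14052 contig names matched the 30478 RefSeq genes of assembly ASM2471397v2. No gene function, marker of the kidney or of a cell type, pathway or sequence could therefore be given for any of the 67 probes, and they are described by contig name, level and pattern.

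Levels are given as log2 processed signal minus the 75th percentile of the same array, so a level of 0 is a probe at that percentile. An array showed 8084 to 10666 of its 14481 probes well above background, and its 75th percentile of signal was 209 to 470. The number of arrays limits the precision. Arrays of 1 group correlated with each other at a median of 0.963, and arrays of different groups at 0.934, over all probes tested. The E. tarda and S. iniae arrays of 12 h shared 1 slide, those of 6 h shared another, and all PBS arrays lay on 1 more slide. Treatment against PBS therefore cannot be told apart from slide. E. tarda and S. iniae FKC at the same time were compared within a slide but in different rows of it, and S. iniae FKC at 12 h and 6 h across slides. The slides also differed in detection and in the trend of signal across an array. An array had 9583 to 10666 probes well above background on the slide of the 6 h E. tarda and S. iniae arrays. The range was 8084 to 9357 on the slide of their 12 h arrays and 8195 to 9794 on the PBS slide. The scanner software's measure of trend, the RMS of its multiplicative detrending fit, was 0.146 to 0.243 on the slide of the 6 h E. tarda and S. iniae arrays. It was 0.068 to 0.087 on the slide of their 12 h arrays and 0.063 to 0.089 on the PBS slide. Its part in the results was not tested.

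1 of the 67 probes, JFC07334_1_code, belongs to the set only through 1 spot. It read 8.27, -0.35, -1.65 and -0.35 on the 4 E. tarda FKC arrays at 12 h, and the scanner software had marked the spot that read 8.27 as non-uniform. The difference from PBS at 12 h was 2.32 with that spot and 0.06 without it. Without marked spots the set holds 66 probes, the median 12 h difference is 1.87, and no other probe of the set is affected. In the fits below marked spots are left out, so JFC07334_1_code enters them with 3 E. tarda FKC arrays at 12 h and is called in none. It is counted in all statements on 67 probes. Like every probe named here outside the first 4 described one by one below, it was named after its values had been seen.

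In 4 other probes 1 S. iniae FKC array at 6 h, which the rule does not use, stood apart. In JFC00714_1_code, JFC12515_1_code, JFC03720_1_code and JFC03388_1_code the third S. iniae FKC array at 6 h lay at least 2 above both others of its group on the log2 scale. These were 5.97% of the 67 probes, and the same array stood out in that way in 0.895% of all probes tested. JFC00714_1_code read -6.33, -6.27 and 1.48 on the 3 S. iniae FKC arrays at 6 h, and JFC12515_1_code read -5.12, -6.40 and 1.82. JFC03720_1_code read -4.36, -2.38 and 3.30, and JFC03388_1_code read 1.69, -0.75 and 4.30. No comparison called any of these 4 probes except E. tarda FKC against PBS at 12 h, which called JFC00714_1_code and is used by the rule.

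The 12 h difference between E. tarda FKC and PBS, which chose the probes, ranged from 1.51 to 3.43 with a median of 1.88 on the log2 scale. The median over the 11066 probes tested was -0.12. The difference was at or above 2 in 26 of the 67 probes and at or above 2.5 in 8. The largest, 3.43, was in JFC00714_1_code, which was well above background on no PBS array at 12 h. Its rise has only a lower bound of 2.51-fold, by the method given below. The 6 h difference ranged from -2.12 to 0.50 with a median of 0.36, against -0.01 over all probes tested. The set thus leaned to its upper limit at 6 h. The difference was at or above 0.3 in 38 probes and at or above 0.4 in 21. It was below 0 in 11 probes and below -0.5 in 6. The lowest value, -2.12, was in a probe well above background on no E. tarda FKC array at 6 h, so its size is not exact.

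The limits of the rule ran through a continuous range. The smallest 12 h difference in the set was 1.51, in JFC15042_1_code, and the largest 6 h difference was 0.50, in JFC22732_1_code. JFC21123_1_code fell just short with 1.498 at 12 h and 0.40 at 6 h. JFC18899_1_code missed the 6 h limit with 0.51 and had 1.73 at 12 h. In all, 19 probes outside the set, that one included, met the 12 h limit with a 6 h difference from 0.5 to under 0.6. A further 17, JFC21123_1_code included, met the 6 h limit with a 12 h difference from 1.4 to under 1.5. The number of probes in the set moved with the scaling. It was 101 with each array scaled to its median, of which 66 were shared with the 67. It was 35 after normexp background correction and quantile normalization, of which 14 were shared. The offset of that correction shrinks log2 differences of dim probes by construction, while the limits stayed the same.

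**Figure D1:**
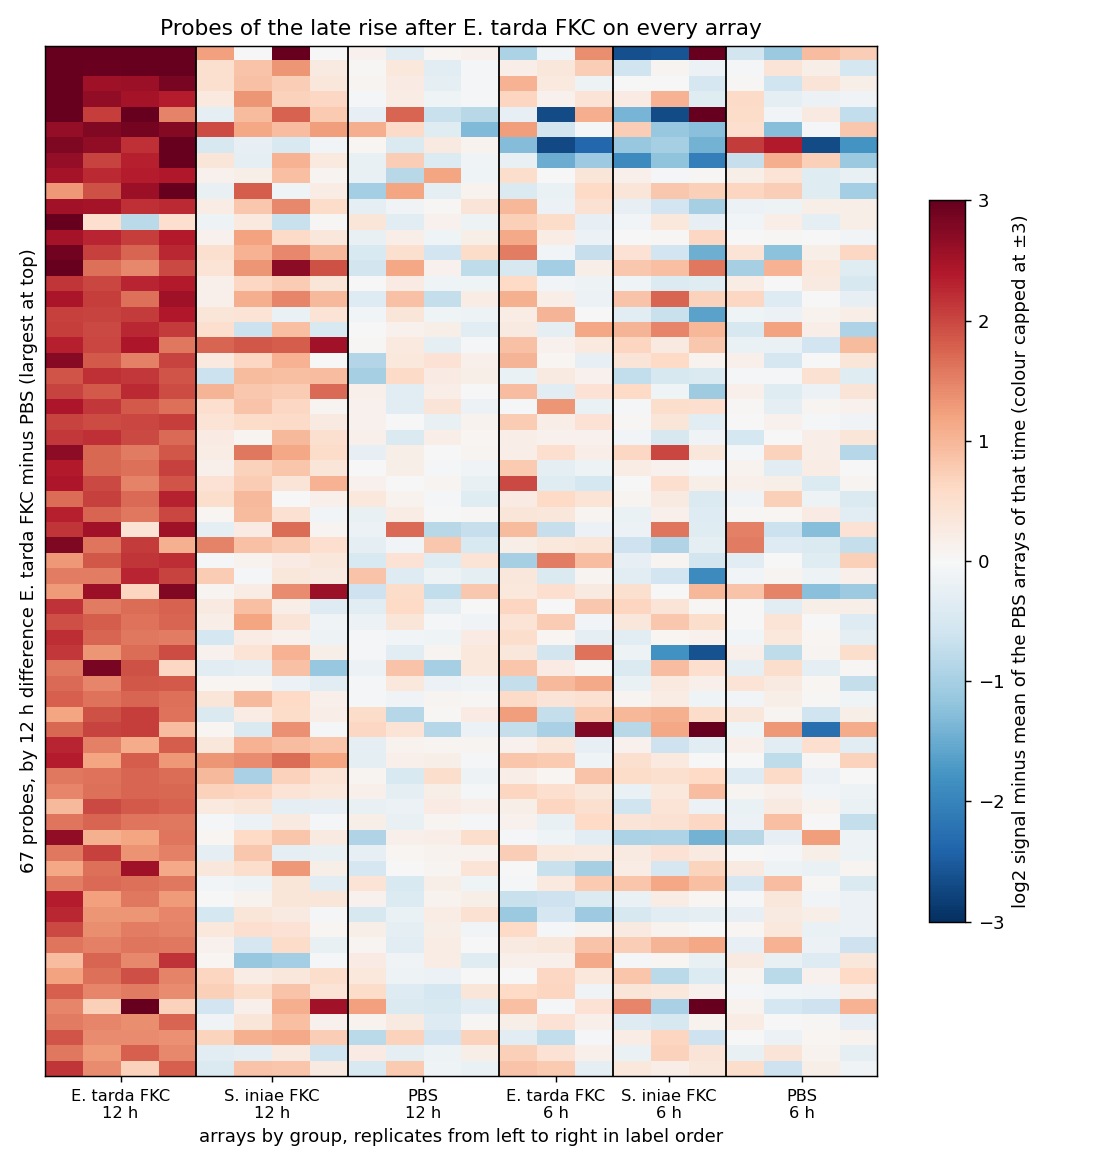
Heat map of the 67 probes (rows, in order of the 12 h difference between E. tarda FKC and PBS) on the 22 arrays (columns by group, 12 h groups left of 6 h groups), coloured by log2 signal minus the PBS mean of that time and capped at 3 on either side. The 12 h E. tarda FKC arrays are red in nearly all rows, the 12 h S. iniae FKC arrays are paler, and single cells stand out in the row of JFC07334_1_code and on the third S. iniae FKC array at 6 h.

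All 22 arrays detected 40 of the 67 probes well above background, and 27 probes fell short on some array. In the PBS group at 12 h, 41 probes were well above background on all 4 arrays, 15 on some and 11 on none. In the S. iniae FKC group at 12 h these numbers were 45, 20 and 2. At 6 h, all 3 E. tarda FKC arrays detected 54 probes in this way, all 3 S. iniae FKC arrays 54 and all 4 PBS arrays 48. For the 11 probes with no PBS array above background at 12 h the rise has only a lower bound, for which each PBS array was set to its lowest signal well above background wherever the probe read less. These bounds ran from at least 1.31-fold to at least 3.21-fold higher in E. tarda FKC, with a median of 2.18.

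The 2 probes with the largest 12 h differences among those well above background on every E. tarda FKC and PBS array were JFC01873_1_code and JFC04713_1_code. JFC01873_1_code read 3.05, 2.98, 3.28 and 3.15 on the E. tarda FKC arrays at 12 h, 0.50, 0.87, 1.35 and 0.30 on the S. iniae FKC arrays and 0.06, 0.33, -0.29 and -0.02 on the PBS arrays. At 6 h it read 0.42, 0.56 and 0.97 in the E. tarda group, -0.37, 0.31 and 0.04 in the S. iniae group and 0.19, 0.60, 0.39 and -0.30 in PBS. Its 4 E. tarda FKC arrays at 12 h lay above all other arrays, and at 6 h the E. tarda FKC and PBS arrays overlapped. The 12 h difference between E. tarda FKC and PBS was 3.1, or 8.55-fold.

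JFC04713_1_code read 3.07, 2.22, 2.23 and 2.51 on the E. tarda FKC arrays at 12 h, 0.16, 0.56, 0.41 and -0.00 on the S. iniae FKC arrays and -0.25, -0.09, -0.61 and -0.39 on the PBS arrays. At 6 h it read 0.54, -0.22 and -0.67 in the E. tarda group, -0.50, -0.50 and -1.01 in the S. iniae group and -0.48, -1.12, -0.11 and -0.33 in PBS. The 12 h difference from PBS was 2.84, or 7.17-fold. Here too the E. tarda FKC arrays of 12 h were the highest of all arrays. The first of the 3 E. tarda FKC arrays at 6 h lay above all PBS arrays and the other two among them.

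The 2 probes with the lowest 6 h differences under the same condition were JFC04372_1_code and JFC03521_1_code. JFC04372_1_code read 0.82, -0.11, -0.13 and 0.03 on the E. tarda FKC arrays at 12 h, -1.96, -1.09, -1.18 and -1.47 on the S. iniae FKC arrays and -1.92, -1.65, -1.21 and -1.0 on the PBS arrays. At 6 h it read -2.18, -1.58 and -2.16 in the E. tarda group, -1.55, -1.39 and -1.35 in the S. iniae group and -1.32, -0.80, -0.89 and -1.25 in PBS. The E. tarda FKC arrays were thus the lowest of the 6 h arrays and the highest of the 12 h arrays. The difference from PBS was 1.59 at 12 h and -0.91 at 6 h.

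JFC03521_1_code read 0.39, -0.73, -0.38 and -0.70 on the E. tarda FKC arrays at 12 h, -1.94, -1.85, -1.60 and -1.61 on the S. iniae FKC arrays and -1.83, -2.38, -1.86 and -1.79 on the PBS arrays. At 6 h it read -2.28, -2.24 and -2.03 in the E. tarda group, -1.82, -1.39 and -1.56 in the S. iniae group and -1.68, -1.28, -1.70 and -1.80 in PBS. Here too the E. tarda FKC arrays were the lowest of the 6 h arrays and the highest of the 12 h arrays, with a difference from PBS of 1.61 at 12 h and -0.57 at 6 h.

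**Figure D2:**
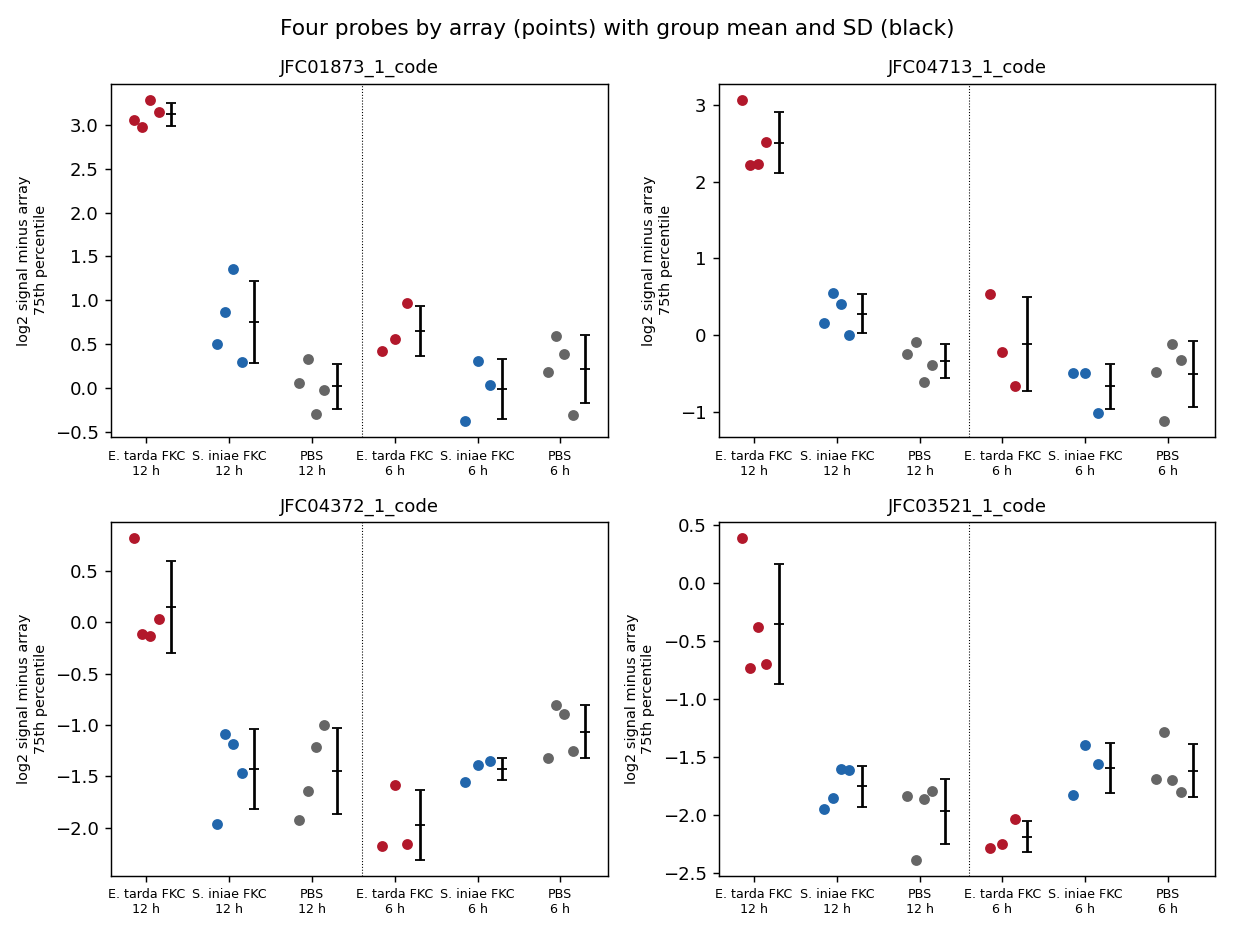
Level of JFC01873_1_code, JFC04713_1_code, JFC04372_1_code and JFC03521_1_code on each array (points; log2 signal minus the array's 75th percentile, with a separate axis range in each panel) with the group mean and SD in black, with the groups of 12 h first and those of 6 h after them. In each panel all 4 E. tarda FKC arrays of 12 h lie above all other arrays, and in both lower panels the 3 E. tarda FKC arrays of 6 h lie below the PBS arrays of 6 h.

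Set against the fit across all 11066 probes, 63 of the 67 were called higher in E. tarda FKC than in PBS at 12 h, against 15.6% of all probes, and every E. tarda FKC array lay above every PBS array in 60, against 15.3%. Both counts follow from the rule and are given as a description. The 4 probes not called were JFC07334_1_code, JFC12515_1_code, JFC03720_1_code and JFC03388_1_code. Among the 40 probes above background on every array, the lowest E. tarda FKC array exceeded the highest PBS array at 12 h in 36 and by at least 1 on the log2 scale in 26. These counts also follow from the rule. The share of all probes with a gap of at least 1 was not determined, so they do not set the 40 apart. At 6 h the same fit called 2 probes higher (14.1% of all probes), JFC03421_1_code and JFC08195_1_code, and 1 lower (14.0%), JFC04372_1_code. The rule kept only probes less than 0.5 above PBS at 6 h, so the low count of higher probes follows largely from it. All 6 h values here come from arrays of the rule and are a description. JFC08195_1_code read 3.25, 3.05 and 3.14 after E. tarda FKC and 2.59, 2.85, 2.71 and 2.55 in PBS at 6 h. These groups do not overlap, although the difference of 0.47 lies under the limit of the rule.

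The rule compared each time with its own PBS group, so a late rise can hold a change in E. tarda FKC fish, a change in PBS fish, or both. Between the times themselves the E. tarda FKC level was higher at 12 h than at 6 h in all 67 probes, by 0.32 to 2.63 with a median of 1.43 on the log2 scale. In JFC07334_1_code this held only through the marked spot. Its other 12 h arrays read -0.35, -1.65 and -0.35, against -0.03, -0.17 and -0.97 at 6 h. The other 66 probes had a median of 1.42. All probes tested had a median of -0.14, with 43.1% above 0. The change was at least 1 in 54 probes, JFC07334_1_code with its marked spot included, against 6.65% of all probes. All 12 h E. tarda FKC arrays lay above all 6 h ones in 51, against 13.6%. These values come from arrays of the rule and lie across 2 slides. The PBS level changed between the times by -2.22 to 0.53 with a median of -0.14, and by -0.02 over all probes tested. It was lower at 12 h by 0.5 or more in 18 probes, of which 4 were above background on all arrays. The lower quartile of the PBS change was -0.57 in the 67 probes and -0.25 over all probes tested.

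The 11 probes with no PBS array above background at 12 h all had a lower PBS level at 12 h than at 6 h, by a difference of -2.22 to -0.18 with a median of -1.12. Their change between times in E. tarda FKC fish had a median of 0.87. The 40 probes above background on every array had a median change of -0.01 in PBS fish and of 1.54 in E. tarda FKC fish. The 11 were split off by their PBS signal at 12 h, so their lower PBS level at that time is a description with no test. That signal was below background, so the size of each PBS fall is not exact. With the bound used above, the largest fall was at least 1.57-fold, in JFC02381_1_code. For some of the 11, JFC10945_1_code among them, the bound gave no fold.

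The fit called 3 probes lower at 12 h than at 6 h in PBS fish, against 0.813% of all probes. The rule used both PBS groups in a way that favours a low PBS level at 12 h and a high one at 6 h, so this count and the values below are a description and not a test. The PBS arrays of 12 h and 6 h also lay in different rows of their slide. A PBS array had 8195 to 9140 probes well above background at 12 h and 9134 to 9794 at 6 h. The part of row and detection in these values was not tested. JFC06419_1_code read -3.31, -3.90, -3.27 and -3.42 in PBS fish at 12 h and -3.0, -2.50, -2.29 and -2.13 at 6 h (difference -1.0, SE 0.21), and was well above background on only 1 of the 4 PBS arrays at 12 h. JFC10945_1_code had PBS means of -4.75 ± 0.28 at 12 h and -3.63 ± 0.20 at 6 h (SD, n = 4 each). JFC02381_1_code had -4.06 ± 0.23 and -2.83 ± 0.66 at the same times (SD, n = 4 each). The last of these was well above background on no PBS array at 12 h and was at least 1.57-fold lower there than at 6 h. JFC10945_1_code was above background on none of them either and its bound gave no fold. None of the 3 calls was kept with each array scaled to its median or after quantile normalization. Leaving out 1 PBS array kept at most 1 of them, and 0 without the fourth PBS array at 6 h or the second at 12 h.

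**Figure D3:**
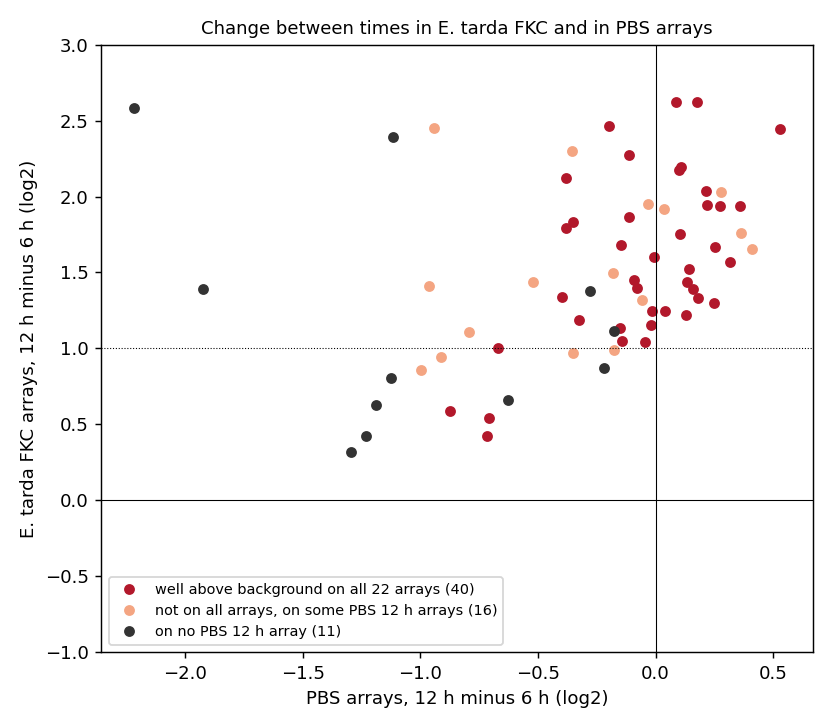
Change in level from 6 h to 12 h on the log2 scale in E. tarda FKC arrays (vertical axis; the dotted line marks 1) and in PBS arrays (horizontal axis), 1 point per probe of the 67, coloured by the arrays on which the probe was well above background. All points lie above 0 on the vertical axis, JFC07334_1_code only through its marked spot. The 11 probes above background on no PBS array at 12 h all lie left of 0 on the horizontal axis.

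The S. iniae FKC arrays took no part in choosing the probes. At 12 h the S. iniae FKC level minus the PBS level ranged from -0.54 to 1.99 with a median of 0.44, and it was above 0 in 57 of the 67 probes. The median over all probes tested was -0.09, with 42.1% above 0. At 6 h the range was -1.73 to 2.39 with a median of 0.08, and 39 of 67 were above 0 (49.7% of all probes tested). The value of 2.39 was in JFC03720_1_code, in which the third S. iniae FKC array at 6 h stood apart. PBS arrays shared with the rule enter the differences from PBS at both times, so a probe with low PBS values at 12 h is favoured at 12 h. The S. iniae and E. tarda FKC arrays of 12 h also shared a slide that held no PBS array. The rule therefore also favours probes that read high on that slide. The fit called 5 probes higher at 12 h (5.82% of all probes) and 0 lower (5.32%). At an unadjusted p under 0.05 the numbers were 21 (11.6% of all probes) and 0 (13.8%). All S. iniae FKC arrays lay above all PBS arrays of 12 h in 11 probes (7.97% of all probes).

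The 5 were JFC02381_1_code, JFC22732_1_code, JFC15894_1_code, JFC08195_1_code and JFC01873_1_code. JFC02381_1_code, already named for its low PBS level at 12 h, read -2.31, -2.19, -2.25 and -1.53 after S. iniae FKC and -4.01, -3.77, -4.32 and -4.12 in PBS at 12 h, at least a 2.65-fold rise (limma adjusted p = 0.000215). JFC22732_1_code read -1.72, -1.62, -1.37 and -1.86 after S. iniae FKC and -3.34, -2.88, -2.86 and -3.08 in PBS (difference 1.4, SE 0.29, limma adjusted p = 0.00428). In neither probe did the groups overlap. JFC15894_1_code rose by 1.07 (SE 0.31, limma adjusted p = 0.0334), JFC08195_1_code by 0.52 (SE 0.15, limma adjusted p = 0.0346) and JFC01873_1_code by 0.73 (SE 0.23, limma adjusted p = 0.0492).

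The count of 5 became 11 with each array scaled to its median, which held all 5, and ranged from 2 to 8 when 1 array was left out. It fell to 3 without the second or the third S. iniae FKC array at 12 h, to 3 without the first or the fourth PBS array, and to 2 without the third PBS array, and it was 8 without the first S. iniae FKC array. At 6 h limma called 0 of the 67 between S. iniae FKC and PBS (1.59% of all probes in either direction), and at an unadjusted p under 0.05 there were 7 higher (7.17%) and 6 lower (6.61%). After normexp correction and quantile normalization it called 3, all lower, with 7.23% of all probes called. Leaving out the second PBS array at 6 h gave 3, all higher, and leaving out the first S. iniae FKC array or the fourth PBS array gave 1 lower.

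The 1 comparison that uses no array of the rule is S. iniae FKC at 12 h against S. iniae FKC at 6 h. Its arrays nevertheless lay on the slides of the E. tarda FKC arrays of the same times, so the rule favours probes that read high on the 12 h slide and low on the 6 h slide, and a difference between those slides cannot be told apart from time here. It asks whether the probes that rose late after E. tarda FKC also changed between these times after S. iniae FKC. The difference ranged from -2.51 to 1.96 with a median of 0.17, and it was above 0 in 44 of 67 probes (65.7%). The value of -2.51 was in JFC03720_1_code, in which the third S. iniae FKC array at 6 h stood apart. All probes tested had a median of -0.12 with 42.8% above 0. The rule required signal above background after E. tarda FKC at 12 h, and among the 7295 contig-named probes that met this alone the median was 0.02 with 52.3% above 0. Scaling each array to its median, which by construction shifts all probes alike, gave a median of 0.41 for the 67 and 0.12 for all probes tested. After normexp correction and quantile normalization these medians were 0.11 and -0.01, and lay closer together.

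The fit called 8 of the 67 higher at 12 h (6.14% of all probes, 8.7% of the 7295) and 2 lower (7.74% and 5.61%). At an unadjusted p under 0.05 these numbers were 12 (12.0%) and 5 (18.1%). All 12 h arrays lay above all 6 h arrays in 12 probes (11.2%) and below them in 5 (18.2%). The share called in either direction, 14.9%, was close to the 13.9% of all probes. JFC06790_1_code had the smallest adjusted p. It read 2.41, 2.88, 3.01 and 2.62 after S. iniae FKC at 12 h and 2.01, 1.74 and 1.78 at 6 h, with no overlap. Its difference was 0.89 (SE 0.21, limma adjusted p = 0.0119). After E. tarda FKC it read 4.39, 4.26, 4.54 and 4.64 at 12 h, above every S. iniae FKC array.

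JFC01086_2_code rose by 1.96 (SE 0.59, limma adjusted p = 0.0331). It read 6.72, 5.91, 5.68 and 6.02 after S. iniae FKC at 12 h and 5.40, 3.54 and 3.42 at 6 h. In PBS fish it read 5.85, 5.34, 4.39 and 3.44 at 12 h, a range wider than the change, whereas the 4 E. tarda FKC arrays of 12 h lay close together at 7.40, 7.53, 7.64 and 7.51. A second entry of the same contig number, JFC01086_1_code, was on the array and not in the set, because its 6 h difference between E. tarda FKC and PBS was 0.79. Its difference between S. iniae FKC at 12 h and 6 h was 1.74 (SE 0.54, limma adjusted p = 0.0406), and its 12 h difference between E. tarda FKC and PBS was 2.98.

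JFC05022_1_code had a difference of 1.79 (SE 0.50, limma adjusted p = 0.0237), but it was well above background on only 1 of the 3 S. iniae FKC arrays at 6 h. JFC08195_1_code rose by 0.62 (SE 0.16, limma adjusted p = 0.0197), JFC04713_1_code by 0.95 (SE 0.28, limma adjusted p = 0.0337) and JFC22732_1_code by 0.96 (SE 0.31, limma adjusted p = 0.0494). The other two had differences of 1.05 and 0.86. JFC01873_1_code, with the largest 12 h difference described above, had 0.76 (SE 0.25, limma adjusted p = 0.0506) and did not pass.

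The difference between 12 h and 6 h was below 0 after S. iniae FKC in 23 of the 67 probes, all of which had a difference above 0 after E. tarda FKC. JFC07334_1_code was among the 23, and its difference after E. tarda FKC was above 0 only through the marked spot. The 2 called lower, a smaller share of the set (2.99%) than of all probes, were JFC11520_1_code and JFC13703_1_code. JFC11520_1_code read 0.95, 0.88, 1.38 and 0.68 after S. iniae FKC at 12 h and 1.89, 2.20 and 1.94 at 6 h, with no overlap, and fell by 1.04 (SE 0.29, limma adjusted p = 0.0248). After E. tarda FKC it read 2.56, 2.72, 2.68 and 2.62 at 12 h and 1.02, 1.35 and 1.82 at 6 h, also with no overlap. Scaling each array to its median kept the direction in S. iniae FKC and gave an adjusted p of 0.0626. JFC13703_1_code was well above background on no S. iniae FKC array at 12 h and was at least 1.06-fold lower there than at 6 h (limma adjusted p = 0.0486). Normexp correction with quantile normalization gave it an adjusted p of 0.492.

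Several of these calls rested on single arrays. The 10 calls became 1 without the second S. iniae FKC array at 6 h, 2 without the third array of that group and 1 without the second S. iniae FKC array at 12 h, and 7 to 10 without each of the other 4. JFC06790_1_code kept a difference of 0.79 to 0.99 in these fits and had an adjusted p of 0.0536 without the second array at 6 h. The 6 spike-in control probes above background on all arrays differed between S. iniae FKC at 12 h and 6 h by -0.55 to -0.02 on the same scale, and their part in the result was not tested. The change in the S. iniae FKC difference from PBS between 12 h and 6 h, tested as an interaction, was called in 0 of the 67 probes by limma (0.949% of all probes). At an unadjusted p under 0.05 it was higher in 17 (6.77%) and lower in 2 (9.52%), and both PBS groups of the rule, which favour a higher value, enter it. The rule also favours a higher value through the slides shared with the E. tarda FKC arrays.

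**Figure D4:**
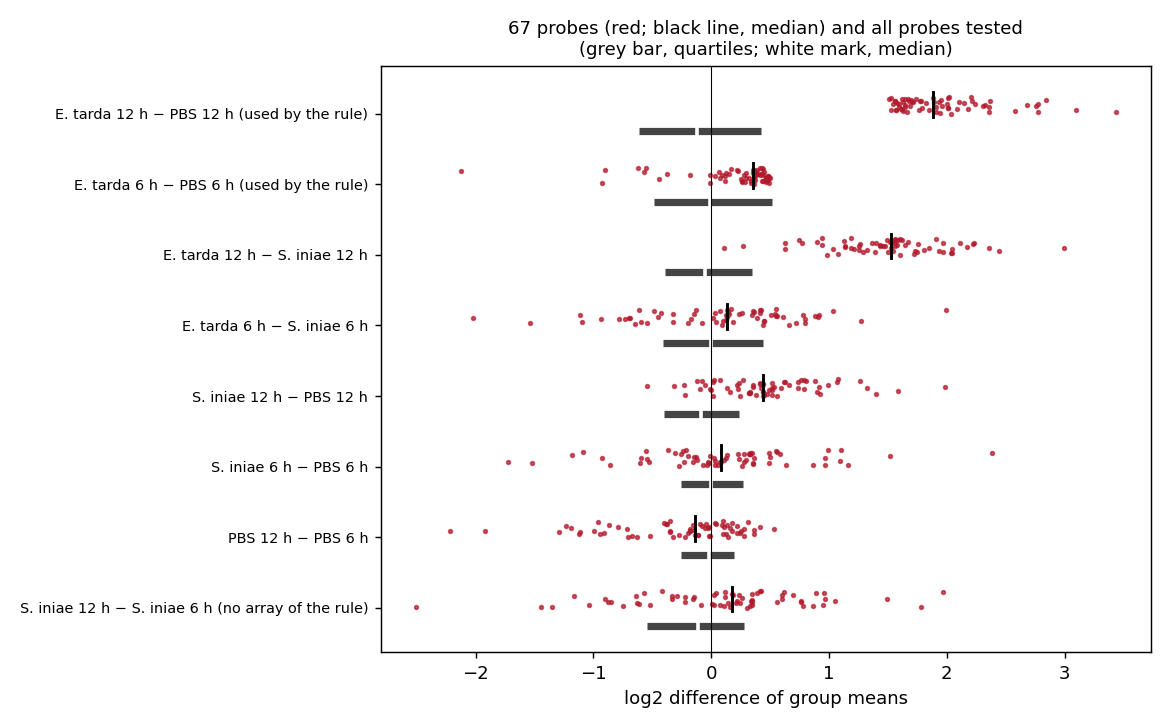
Differences of group means on the log2 scale for the 67 probes (red points, black line at their median) beside the quartiles (grey bar) and median (white mark) of the 11066 probes tested, 1 row per comparison. The 2 upper rows chose the probes, the row of E. tarda FKC against S. iniae FKC at 12 h has all 67 points above 0, and the lowest row, S. iniae FKC at 12 h minus 6 h, uses no array of the rule and has points on both sides of 0.

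E. tarda FKC and S. iniae FKC at 12 h were compared within 1 slide. The E. tarda FKC level was higher in all 67 probes (45.9% of all probes tested), by 0.10 to 3.0 with a median of 1.52, against -0.05 over all probes tested. The fit called 53 of them higher (9.45% of all probes) and 0 lower (9.33%), with 57 (14.7%) and 0 (16.5%) at an unadjusted p under 0.05. All 4 E. tarda FKC arrays lay above all 4 S. iniae FKC arrays in 51 probes (10.2% of all probes). The E. tarda FKC arrays chose these probes for high values, so the counts describe the set and are not independent evidence. The 6 spike-in probes differed between these groups by -0.03 to 0.09. For 2 of the 67 probes no S. iniae FKC array at 12 h was well above background, so their difference has only a lower bound. By the method used above for PBS, the bounds were at least 1.82-fold, in the probe with the difference of 3.0, and at least 2.13-fold.

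JFC01873_1_code was 2.36 higher in the E. tarda than in the S. iniae group (SE 0.23) and JFC04713_1_code 2.23 higher (SE 0.26). JFC04372_1_code was 1.58 higher (SE 0.25) and JFC03521_1_code 1.4 higher (SE 0.22). The smallest difference was in JFC02381_1_code, at 0.10 (SE 0.29). It read -1.73, -2.04, -1.62 and -2.46 in the E. tarda group and -2.31, -2.19, -2.25 and -1.53 in the S. iniae group, and these groups overlapped. JFC22732_1_code also had overlapping groups, with a difference of 0.27 (SE 0.29). Both were called in S. iniae FKC against PBS at 12 h. The S. iniae FKC difference from PBS at 12 h was 1 or more on the log2 scale in 7 of the 67 probes, JFC02381_1_code and JFC22732_1_code among them. The upper quartile of this difference was 0.73 in the 67 probes and 0.23 over all probes tested. JFC00714_1_code, with 1.26, also belongs to the 7. It was well above background on no PBS array and on 1 S. iniae FKC array at 12 h, and its bound gave no fold.

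At 6 h the difference between E. tarda FKC and S. iniae FKC ranged from -2.02 to 2.0 with a median of 0.14. It was above 0 in 44 of the 67 (49.8% of all probes tested). The value of -2.02 was in JFC03720_1_code, in which the third S. iniae FKC array at 6 h stood apart. The fit called 3 higher (7.74% of all probes) and 0 lower (6.29%), with 8 (14.3%) and 2 (14.2%) at an unadjusted p under 0.05. JFC04320_1_code read -0.99, -0.21 and -1.23 in the E. tarda group and -1.53, -1.88 and -2.82 in the S. iniae group (difference 1.27, SE 0.29). JFC05022_1_code differed by 2.0 (SE 0.53) and JFC10945_1_code by 1.04 (SE 0.30). The 3 were 4.48% of the 67 probes, a smaller share than the 7.74%, and the E. tarda FKC arrays of 6 h belong to the rule, so they are a description. JFC05022_1_code was well above background on only 1 of the 3 S. iniae FKC arrays and JFC10945_1_code on 2. None of the 3 was called without the third S. iniae FKC array at 6 h, and 1 was called without the third E. tarda FKC array.

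In 65 of the 67 probes the E. tarda FKC mean at 12 h was the highest of the 6 group means. JFC07334_1_code was among the 65 only through its marked spot. JFC03720_1_code and JFC03388_1_code were the exceptions, and in both the S. iniae FKC mean at 6 h was the highest, through the third array of that group named above. Over the 40 probes above background on every array, the median level above the PBS mean of the same time was 2.04, 1.75, 1.67 and 1.80 on the 4 E. tarda FKC arrays at 12 h and 0.55, 0.26 and 0.23 on the 3 at 6 h. On the S. iniae FKC arrays it was 0.21, 0.58, 0.57 and 0.27 at 12 h and 0.22, 0.21 and 0.04 at 6 h. The E. tarda FKC arrays of 12 h were apart from all others by more than 1 in this median. The rule chose E. tarda FKC values that were high at 12 h and less than 0.5 above PBS at 6 h. This gap and the count of 65 largely follow from it and are a description.

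Single arrays differed within a group. The first E. tarda FKC array at 12 h was the highest of its group in 30 of the 67 probes (44.8%, and 35.9% of all probes tested), and the first at 6 h in 35 (52.2% and 35.0%). Of all arrays, the first E. tarda FKC array at 12 h had the lowest 75th percentile of signal, 209. It also had the fewest probes well above background, 8084. Levels have that percentile subtracted, and its part in these counts was not tested. The third S. iniae FKC array at 12 h was the highest in 31 probes (46.3% and 22.3%) and the second in 22 (32.8% and 25.3%), while the first and the fourth were the highest in 7 each. Leaving out that first E. tarda FKC array at 12 h, the rule held for 94 probes, of which 57 were among the 67. It held for 80 without the second array of that group, 91 without the third and 84 without the fourth. In each case the background condition covered only the arrays left in the group. The spike-in probes differed between E. tarda FKC and PBS by -0.31 to -0.17 at 12 h and by -0.95 to -0.00 at 6 h, and their part in the choice of the probes was not tested.

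After normexp correction (offset 50) followed by quantile normalization, steps that were not run apart, the 67 probes had 12 h differences of 0.16 to 2.71 with a median of 1.20. All 67 remained above 0, and 16 were at or above 1.5. Of the 27 probes not above background on all arrays 0 reached 1.5, and their median was 0.84. The offset, added to every corrected signal, shrinks log2 differences of dim probes by construction. This setting also started from median spot and background signals, with marked spots kept. The 40 others had a median of 1.42.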

How the data were processed

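Cy3-labelled kidney RNA was measured on a custom Agilent design. Per the file headers, the deposited intensity values were read with Feature Extraction 10.7.3.1. Version 9.5.3.1 of Agilent Feature Extraction stands in the submitters' processing notes. The authors also deposited a log2 table, which was found to hold log2 signal less each array's 75th percentile and less a probe's PBS median at that time (99.99% of values within 0.1 of this and 53.3% within 0.01, column medians -0.274 to 0.0274). It was an alternative.

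Each array has 15197 spots, 536 of them controls, and none was saturated. Spots of a probe were averaged after the 75th percentile of the array had been taken from log2 processed signal. The rule kept all spots. The fit left out spots marked as outliers and tested 11066 probes well above background on at least 3 arrays, with 6 group means in limma 3.58.1 (R 4.3.3, lmFit and eBayes) and Benjamini-Hochberg adjustment over all of them at 0.05, after a test on simulated data. No list or marker could be used because no name matched. Bounds use each array's lowest signal among probes well above background.

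Probes named by rule are the 2 with the largest 12 h and the 2 with the lowest 6 h difference between E. tarda FKC and PBS, among those above background on every array of both treatments. The members and lists were chosen with earlier results of these data known. Same-numbered samples deviated with a median correlation of -0.00 over 51 pairs (-0.31 to 0.39), and differently numbered ones with -0.00 over 150 pairs (-0.39 to 0.29). These values showed no sign of a pairing by number, but they cannot exclude one, and the labels state none. Alternatives were other scalings, normexp with an offset of 50, the filter, the authors' log2 values, the groups alone, a replicate block and leaving out each array.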

Additional observations from a re-analysis of the deposited data

Results flagged for a closer look

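Among 92 groups of 4 arrays, for 22 of the named probes and the median of the 67, 8 held 1 array far from the other 3. Chance marks about 1 in 20 groups that were not chosen for their values. Most of these probes were named after their values had been seen, JFC07334_1_code for the marked spot itself. The 8 therefore cannot be set against that rate. All values are log2 signal minus the array's 75th percentile. JFC07334_1_code read 8.27 on the first E. tarda FKC array at 12 h, the spot marked as non-uniform. JFC04320_1_code had 3 such arrays, at 0.79 on the fourth E. tarda FKC array, -1.83 on the third S. iniae FKC array and -1.26 on the second PBS array, all at 12 h. JFC02381_1_code read -1.53 on the fourth S. iniae FKC array at 12 h. The others were PBS arrays at 12 h. JFC03388_1_code read 0.76 on the first, and on the second JFC03521_1_code read -2.38 and JFC00714_1_code read -5.94.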

How the results depend on the processing

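The number of probes that met the rule was 67, against 66 without marked spots, 64 after quantile normalization, 101 with median scaling, 35 after normexp correction and quantile normalization, and 56 to 94 without 1 array. No slide block was run for it, since E. tarda FKC and PBS lay on different slides. Of the counts called, E. tarda FKC against S. iniae FKC at 12 h was 53, with 37 of the 40 probes left by a filter for all arrays, and 43 to 50 without 1 array. S. iniae FKC at 12 h against 6 h was 10, against 6 after quantile normalization and 1 to 10 without 1 array. S. iniae FKC against PBS at 12 h was 5, against 11 with median scaling, 3 with no filter and 2 to 8 without 1 array, and at 6 h 0, against 3 after normexp correction and 0 to 3 without 1 array. E. tarda FKC against S. iniae FKC at 6 h was 3, against 1 with the filter for all arrays, 0 with the groups compared alone and 0 to 4 without 1 array. PBS at 12 h against 6 h was 3, against 0 after quantile normalization, 0 with median scaling, 1 after normexp correction, 1 with no filter, 0 with the filter for all arrays, 1 with the groups alone and 0 to 2 without 1 array. With the replicate block, a pairing that the labels do not state, these counts were 52, 8, 5, 0, 3 and 1. The cause of these moves was not tested, apart from the fewer probes or arrays some settings leave. In the comparisons fitted again under these settings, no named probe changed direction where it had been called. E. tarda FKC against PBS, used by the rule, was not fitted again at either time.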
